A study of Mus musculus with 4 samples.

Results

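The 31 genes described here are the tumour suppressor gene Trp53, its upstream activator Cdkn2a and genes that feed back on p53 or are known targets of it. They were taken by gene symbol from a list written with earlier results of these data known. All 31 had a row among the 16857 genes of the deposited table, and all 31 were among the 13981 genes tested. They were divided by role into feedback genes (4), cell-cycle arrest genes (6), DNA repair genes (5), cell death genes (9), other targets (5), and p53 with its upstream activator (2). Bulk RNA was sequenced from 4 colonoid lines of mouse adenoma, cultures in which the epithelium of the colon grows as hollow or budding structures, with 1 library per line. The G0 group holds lines 75 and 179, labelled Apc-null and heterozygous for LSL-mTERT, an allele of the telomerase reverse transcriptase gene Tert. The G2 group holds lines 157 and 236, labelled Apc-null and homozygous for that allele, so that loss of Apc is shared by all 4 lines, as is the name Apcmin. The series sets colonoids of low against colonoids of high chromosomal instability, without naming the group that belongs to either term. Whether the lines derive from different mice is not stated, and the p-values rest only on differences between lines of a group. For each gene, the test draws this spread towards that of other genes at a similar level.

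The p53 protein is a transcription factor that is held at a low level by the ubiquitin ligase Mdm2 and is stabilised when DNA is damaged, including when telomeres lose their protective caps. Once active it raises transcription of genes that stop the cell cycle, assist repair or start cell death, and also of Mdm2, Ppm1d and Ccng1, which act back on it. In the intestinal epithelium this response limits the survival of crypt cells after damage, and its loss is a common late event in colorectal tumours.

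The libraries held 16545429 to 17901744 recovered counts each. Tert, the check of the labelled allele, stood at 93.3 and 97.5 normalized counts in G0 and at 0 and 0.98 in G2 (adjusted p = 0.00128). A normalized count is a count divided by the library's size factor. Ddx3y, Eif2s3y, Kdm5d and Uty, genes of the Y chromosome, summed to 0 in both G0 libraries and to 1667 and 1630 in G2, so that the group and Y-linked expression cannot be told apart for any gene below. The 10 epithelial markers summed to between 119087 and 163110 normalized counts per library. By limma 1 of the 10 rose and 2 fell. The adhesion gene Cdh1 rose 1.8-fold (adjusted p = 0.0171), the brush border gene Vil1 fell 4.42-fold (adjusted p = 0.0103), and the intestinal identity factor Cdx2 fell from 2395 and 3199 normalized counts in G0 to 270.3 and 186.7 in G2 (adjusted p = 0.00043). Cdx1 had at most 8.07 normalized counts in any library, and Krt20 had 0.98 and 0 in G0 and 93.8 and 4.89 in G2 (adjusted p = 0.0880). Fibroblast markers summed to 4.91 to 10.8 normalized counts and the defining leukocyte marker Ptprc was at 0 in all 4 libraries. The summed leukocyte markers with a row were 0.98 and 1.02 in G0 and 19.2 and 6.84 in G2, and the endothelial markers 3.93 and 4.06 against 48.4 and 46.9, nearly all of it from Tek. The part of these differences in the results below was not tested.

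The first question was whether transcripts of the pathway differ between the G0 and G2 lines. Of the 31 genes, 2 rose in G2, the arrest gene Plk2 and the death gene Trp53inp1, and 0 fell by limma with Benjamini-Hochberg adjustment over all genes. Among all genes tested, 5.93% were higher and 4.56% lower by the same test, so the 6.45% of the set that rose lies near that background. At an unadjusted p under 0.05 the limma test held 3 of the 31 (9.68%), against 26.8% of all genes tested, the additional gene being Ckap2, which was lower in G2. The median log2 fold change of the set was 0.05, against 0.01 over all genes tested, and the median size of the change in either direction was 0.18 against 0.33. Among the 10107 genes with a mean at or above that of the lowest member, Sesn1, the median size was 0.26. The 95% interval of the fold change lay inside a 2-fold change in both directions for 27 of the 31 genes (87.1%), against 78.2% of the genes at or above that level. The exceptions were Trp53inp1, Rrm2b, Gdf15 and Ckap2.

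**Figure D1:**
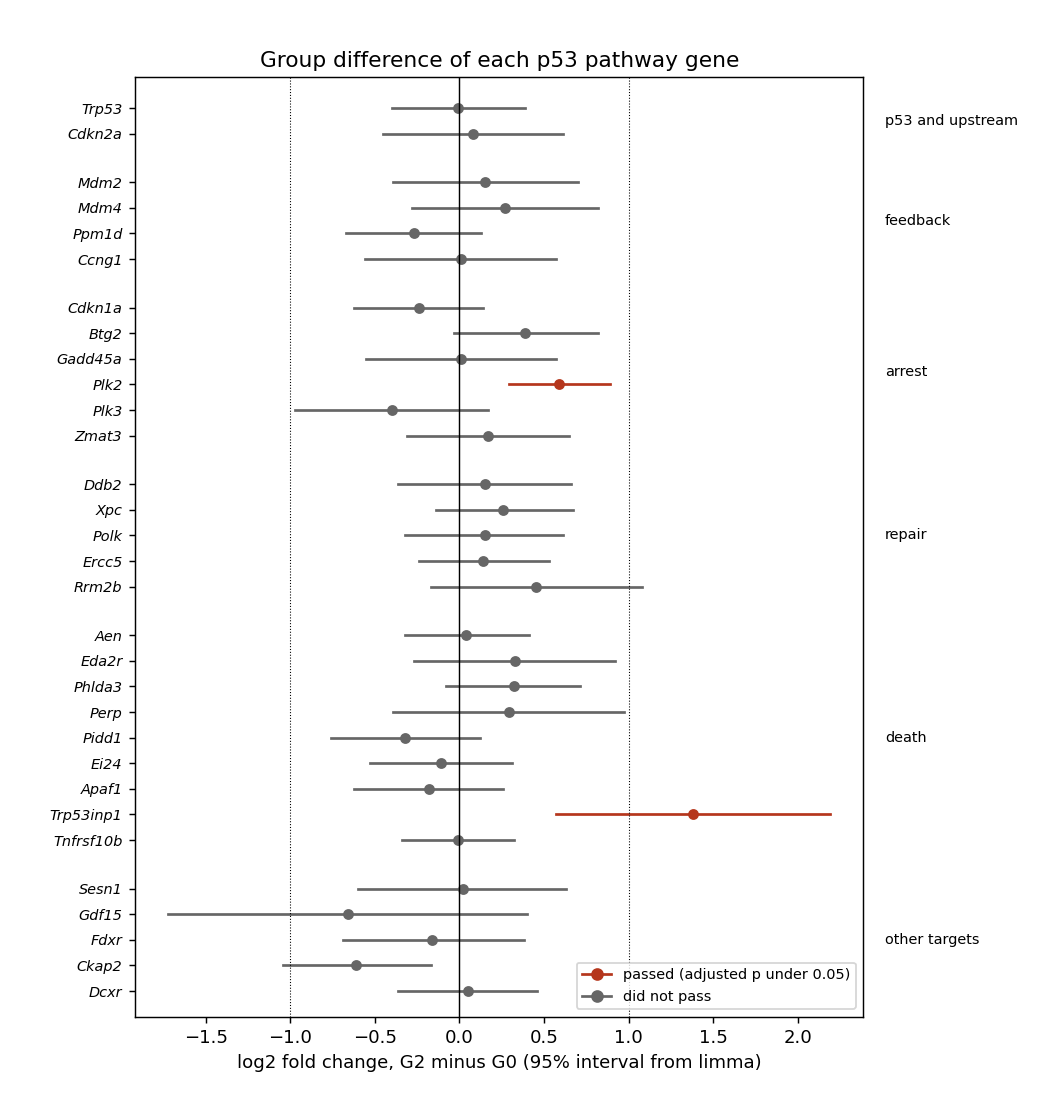
Log2 fold change of each p53 pathway gene, G2 minus G0, with the 95% interval from limma (n = 2 lines per group); dotted lines mark a 2-fold change and genes are ordered by role. Plk2 and Trp53inp1, in red, are the 2 genes that passed, and 27 of 31 intervals lie inside the dotted lines.

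Both G2 libraries lay above both G0 libraries for 7 of the 31 genes (22.6%) and below them for 5 (16.1%), against 29.2% and 28.6% of all genes tested. The 7 were Btg2, Plk2, Ddb2, Xpc, Rrm2b, Phlda3 and Trp53inp1, and the 5 were Ppm1d, Cdkn1a, Plk3, Pidd1 and Ckap2. For the other 19 (61.3%) the groups overlapped, as they did for 42.2% of all genes tested.

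**Figure D2:**
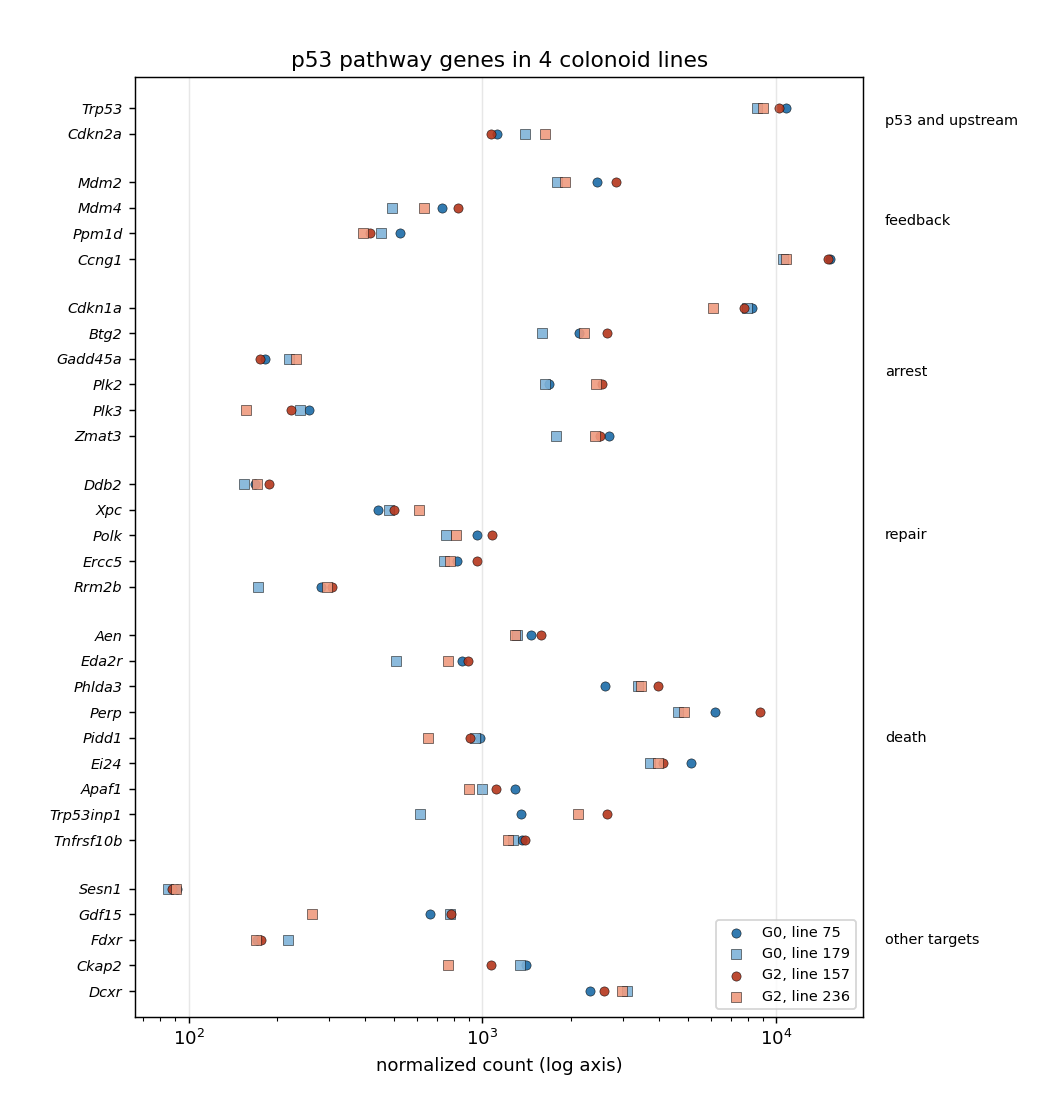
Normalized counts of the 31 p53 pathway genes in each of the 4 lines, on a log axis, ordered by role; blue marks G0 and red G2. Levels run from 85.3 for Sesn1 to 15267 for Ccng1, and the groups separate clearly for Plk2 and Trp53inp1, while circles and squares of both colours pair up for Ccng1 and Mdm2.

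Trp53 itself, on chromosome 11 from 69580348 to 69591873, was among the most abundant transcripts of the set. Its normalized count was 10773 and 8591 in the G0 lines 75 and 179 and 10199 and 9005 in the G2 lines 157 and 236. The groups overlapped, and the log2 fold change was -0.01 with an interval of -0.40 to 0.39 (limma adjusted p = 0.988), or 0.06 with libraries scaled by their totals. Per kilobase of merged exons, the scale on which genes can be compared, Trp53 had a mean of 5162 normalized counts and stood at the 98.6th percentile of the genes tested. A transcript level does not show the amount or the state of the protein. Cdkn2a, whose Arf product inhibits Mdm2 and whose Ink4a product inhibits CDK4 and CDK6, had 1119 and 1397 normalized counts in G0 and 1069 and 1632 in G2 (adjusted p = 0.850). The 2 products share exons, and 1 row cannot tell them apart.

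None of the 4 feedback genes passed the limma test, and none had an unadjusted p under 0.05. Mdm2, on chromosome 10 from 117688875 to 117710758, encodes the ubiquitin ligase that degrades p53 and is itself a p53 target. It stood at 2455 and 1801 normalized counts in G0 and at 2844 and 1915 in G2, a log2 fold change of 0.15 (interval -0.39 to 0.70, adjusted p = 0.715). In each group the replicate 1 line was the higher one, and this difference was larger than that between the groups. Mdm4, which binds p53 and blocks its activation domain, had 728.6 and 493.7 in G0 and 827.0 and 634.4 in G2 (adjusted p = 0.487). Ppm1d, the phosphatase Wip1 that removes damage-induced phosphate groups from p53 and its kinases, had 526.3 and 453.0 in G0 and 414.5 and 393.9 in G2. Its groups did not overlap, but the difference did not pass (log2 fold change -0.27, interval -0.67 to 0.13, adjusted p = 0.341). Ccng1, the cyclin G1 gene and a standard p53 target, had 15267 and 10534 in G0 and 15022 and 10806 in G2. Its group means of 12900 ± 3347 and 12914 ± 2981 normalized counts (SD, n = 2 each) were almost equal, while line 75 was 1.45-fold above line 179 and line 157 was 1.39-fold above line 236.

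Of the 6 arrest genes, Plk2 rose and 0 fell. Plk2 encodes a polo-like kinase that acts in centriole duplication and in stress-induced arrest, on chromosome 13 from 110395044 to 110400844. It stood at 1691 and 1635 normalized counts in G0 and at 2563 and 2443 in G2. Both lines of each group were close to each other and the groups were well apart, with a 1.5-fold rise (log2 fold change 0.59, SE 0.13, interval 0.29 to 0.89, limma adjusted p = 0.0306). Its relative Plk3, also a stress-responsive kinase, had 256.3 and 238.7 in G0 and 223.9 and 156.4 in G2, with a log2 fold change of -0.40 that did not pass (adjusted p = 0.327). Cdkn1a encodes p21, the CDK inhibitor through which p53 stops the cell cycle, on chromosome 17 from 29090979 to 29100722. It was highly expressed in all 4 lines, at 8294 and 7933 normalized counts in G0 and 7758 and 6076 in G2. Both G2 values lay below both G0 values, by less than the test could call (log2 fold change -0.24, interval -0.62 to 0.14, adjusted p = 0.382). The antiproliferative gene Btg2 had 2137 and 1596 in G0 and 2656 and 2219 in G2 (log2 fold change 0.39, adjusted p = 0.217). Gadd45a, a stress sensor that inhibits the CDK1 and cyclin B complex, had 182.6 and 220.4 in G0 and 175.5 and 231.7 in G2, and its groups overlapped. Zmat3, an RNA-binding protein that acts in p53 tumour suppression, stood at 2703 and 1787 in G0 and 2518 and 2415 in G2, with line 179 lowest.

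Each of the 5 repair genes had a log2 fold change above 0, between 0.14 and 0.45, and none passed the limma test or had an unadjusted p under 0.05. Of the 13981 genes tested, 7138 lay above 0. With 1 library left out, Polk and Ercc5 turned to as low as -0.05 and -0.01. Rrm2b, the p53-induced subunit of ribonucleotide reductase that supplies nucleotides for repair, had the largest log2 fold change of the 5. It stood at 282.8 and 172.7 normalized counts in G0 and 308.6 and 297.1 in G2, and line 179 alone was apart (interval -0.17 to 1.08, adjusted p = 0.315). Xpc and Ddb2 encode the proteins that recognise damaged bases in global nucleotide excision repair. Xpc had 442.8 and 479.5 in G0 and 502.2 and 609.9 in G2 (adjusted p = 0.367). Ddb2 had 168.9 and 154.4 in G0 and 188.6 and 171.1 in G2 (adjusted p = 0.690), and neither gene's groups overlapped. Polk, a polymerase that copies past damaged bases, ranged from 749.7 to 956.4 in G0 and from 815.2 to 1076 in G2. Ercc5, the endonuclease that cuts on the 3′ side of a lesion, ranged from 742.5 to 817.9 in G0 and from 774.1 to 957.1 in G2, and the groups of both genes overlapped.

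Of the 9 death genes, Trp53inp1 rose and 0 fell. Trp53inp1 encodes a stress-induced protein that promotes p53-dependent death and autophagy, on chromosome 4 from 11156441 to 11174379. It stood at 1349 and 613.5 normalized counts in G0 and at 2650 and 2123 in G2. Both G2 lines exceeded both G0 lines, but the G0 lines differed 2.2-fold from each other. The ratio of the means was 2.43 (log2 fold change 1.38, SE 0.34, interval 0.57 to 2.19, limma adjusted p = 0.0482). It was 3.89 without line 75 (G0 replicate 1) and 1.77 without line 179 (G0 replicate 2), and the call was lost without a filter on low values (adjusted p = 0.0931) or with libraries scaled by their totals (adjusted p = 0.0559).

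The other 8 death genes did not pass. Phlda3, a target that restrains Akt at the membrane, had 2619 and 3397 normalized counts in G0 and 3970 and 3479 in G2, without overlap (adjusted p = 0.270). Pidd1, the scaffold of the caspase-2 activating complex, had 982.9 and 946.7 in G0 and 909.7 and 654.9 in G2, also without overlap (log2 fold change -0.32, adjusted p = 0.310). Perp, a desmosomal protein with a part in p53-dependent death, ranged most widely in G2, with 8827 in line 157 and 4869 in line 236, against 6191 and 4625 in G0. Eda2r, an X-linked receptor of the TNF receptor family, had 854.3 and 508.9 in G0 and 892.5 and 766.3 in G2, where line 179 was the low one. The nuclease gene Aen stood at 1459 and 1315 in G0 and 1581 and 1290 in G2. Apaf1, the core of the apoptosome, had 1293 and 994.5 in G0 and 1113 and 901.2 in G2. Tnfrsf10b, the mouse TRAIL receptor, had a log2 fold change of -0.01 with an interval of -0.34 to 0.32, or 0.05 with libraries scaled by their totals, and lay between 1220 and 1397 in all 4 lines. Ei24, a protein of the endoplasmic reticulum, had 5126 and 3707 in G0 and 4127 and 3968 in G2, and the groups of these last 6 genes overlapped.

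Among the other targets, 0 of 5 passed the limma test, and 1, Ckap2, had an unadjusted p under 0.05. Ckap2, a spindle-associated protein of dividing cells, had 1411 and 1346 normalized counts in G0 and 1070 and 765.4 in G2. Its groups did not overlap, and the log2 fold change of -0.61 had an interval of -1.04 to -0.17 (adjusted p = 0.0863). Gdf15, a secreted stress cytokine, stood at 664.7, 779.1 and 779.6 in lines 75, 179 and 157 and at 263.9 in line 236. That 1 line carried the difference between groups, whose interval ran from -1.72 to 0.40 (adjusted p = 0.382), and without it (G2 replicate 2) the log2 fold change was 0.12. Sesn1, a sestrin that restrains mTORC1, was the lowest of the set, at 91.3 and 85.3 in G0 and 87.7 and 90.9 in G2. Its lowest count, 84 in line 179, has an exact 95% Poisson interval of 67.0 to 104, which covers counting error only. Fdxr, ferredoxin reductase of mitochondria, had 170.9 and 217.4 in G0 and 176.5 and 169.1 in G2. Dcxr, a sugar reductase, had 2331 and 3116 in G0 and 2601 and 2995 in G2, and both genes overlapped between groups.

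Levels differed between members far more than between groups. Per kilobase of merged exons, the highest means were those of Trp53, Ccng1 at 3675 normalized counts, Perp at 3139, Dcxr at 2959, Cdkn1a at 2765 and Phlda3 at 2346. All 6 lay above the 96th percentile of the genes tested, from 96.8 for Phlda3 to 98.6 for Trp53. Mdm2 stood at 717 normalized counts per kilobase and Plk2 at 744, at percentiles of 87.5 and 88.0. The lowest were Sesn1 at 22.4, Rrm2b at 58.2, Mdm4 at 61.8 and Ddb2 at 73.4 normalized counts per kilobase, against a median of 116 over the genes with a known exon length.

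Differences between the lines of a group were examined after the values were seen. Line 75 was above line 179 for 24 of the 31 genes (77.4%), and line 157 was above line 236 for 26 (83.9%). Among the genes at or above the lowest member's mean the shares were 49.1% and 50.7%. For 23 of the 31 genes (74.2%) both differences held, and for 4 (12.9%), Cdkn2a, Gadd45a, Xpc and Dcxr, both were reversed. Among the genes at or above the lowest member's mean these shares were 31.5% and 31.6%. That comparison takes level into account, not exon length. The merged exons of Cdkn2a, Gadd45a, Xpc and Dcxr span 1172, 1223, 3634 and 933 bases. A part of exon length or RNA quality in the differences between lines was not tested. All 4 feedback genes and 8 of 9 death genes were higher in line 75 and in line 157. The median difference of the set on the log2 scale was 0.14 between the G0 lines and 0.22 between the G2 lines, against -0.01 and 0.00 for the genes at or above the lowest member's mean. The widest differences were those of Trp53inp1 (1.14), Eda2r (0.75) and Rrm2b (0.71) in G0 and of Gdf15 (1.56) and Perp (0.86) in G2. The replicate numbers come from the sample titles, and no label links line 75 with line 157. Of 39 other p53 targets, described below, 10 (25.6%) were higher in both lines 75 and 157. The same held for 11 of 26 p53 regulators (42.3%) and 11 of 26 targets of the DREAM complex (42.3%), also described below. Of these DREAM targets, 22 (84.6%) were higher in line 157 than in line 236. Across the 31 genes the differences in G0 and in G2 correlated at r = 0.22, against 0.24 across the genes at or above the lowest member's mean.

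**Figure D3:**
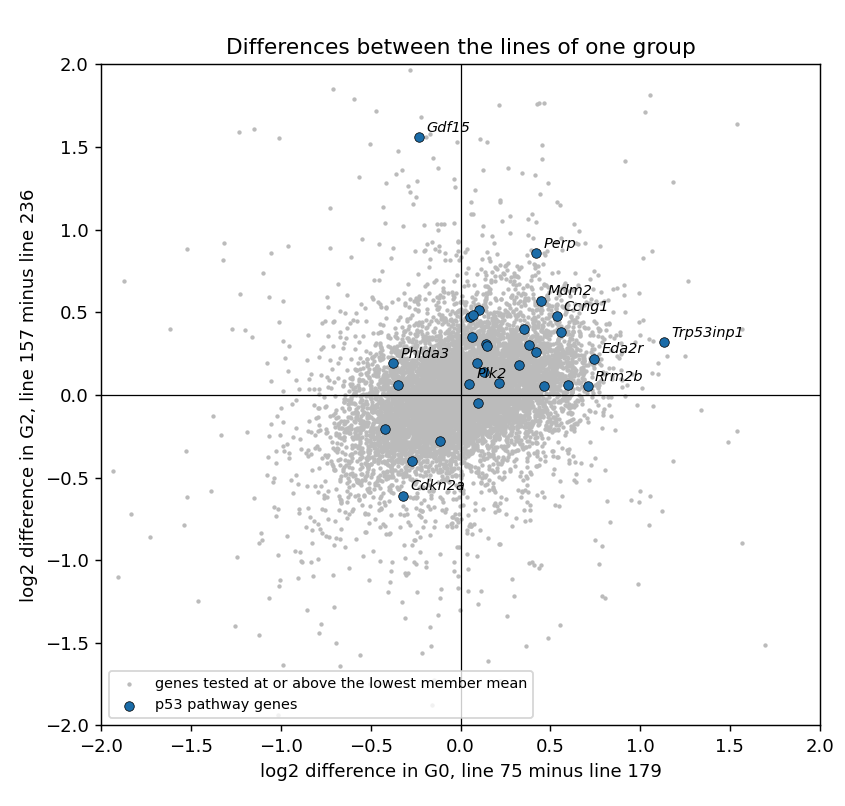
Log2 difference between the 2 lines of G0 (horizontal) and between the 2 lines of G2 (vertical) for the 31 p53 pathway genes in blue and for genes at or above the lowest member's mean in grey; 46 of the 10107 grey genes lie outside the axes. Of the blue points, 23 lie in the upper right quadrant and 4 in the lower left.

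The sequences before the start sites were read for the consensus decamer of the p53 response element, because the set is defined by this factor. RefSeq windows of 300 bases on GRCm38.p6, from 250 bases before to 50 after a start, were found for 24 of the 31 genes. The decamer, whose pattern reads the same on both strands and which was searched without mismatch, was present for 11 of these 24 genes (45.8%), against 8.42% of 10885 genes tested with a window and 6 of 35 other p53 targets (17.1%). The genes were Trp53, Ccng1, Mdm2, Ppm1d, Cdkn1a, Gadd45a, Polk, Aen, Ei24, Ckap2 and Sesn1. Cdkn1a alone among the 24 held 2 decamers with at most 13 bases between them, an arrangement found in 6 of the 10885 genes. Neither a match nor its absence in so short a window says whether p53 binds, and many response elements lie outside such windows. The next 4 windows show the Cdkn1a arrangement at its upstream start, the single decamers of the feedback genes Mdm2 and Ccng1, whose levels differed between lines and overlapped between groups, and the window of Plk2, which rose and holds no match. Capitals mark decamers.
Cdkn1a, chr17:29090729-29091028, plus strand: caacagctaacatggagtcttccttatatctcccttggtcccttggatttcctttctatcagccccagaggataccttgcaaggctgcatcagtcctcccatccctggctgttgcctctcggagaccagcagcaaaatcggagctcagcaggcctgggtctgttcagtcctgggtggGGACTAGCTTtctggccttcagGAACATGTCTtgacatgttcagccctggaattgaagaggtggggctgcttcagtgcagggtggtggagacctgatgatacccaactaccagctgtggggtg
Mdm2, chr10:117710709-117711008, minus strand: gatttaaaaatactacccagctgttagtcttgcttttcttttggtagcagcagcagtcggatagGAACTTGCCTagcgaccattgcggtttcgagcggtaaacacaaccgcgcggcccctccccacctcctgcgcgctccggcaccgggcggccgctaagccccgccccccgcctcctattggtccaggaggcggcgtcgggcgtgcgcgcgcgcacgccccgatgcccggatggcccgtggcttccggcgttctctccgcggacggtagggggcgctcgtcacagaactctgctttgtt
Ccng1, chr11:40755237-40755536, minus strand: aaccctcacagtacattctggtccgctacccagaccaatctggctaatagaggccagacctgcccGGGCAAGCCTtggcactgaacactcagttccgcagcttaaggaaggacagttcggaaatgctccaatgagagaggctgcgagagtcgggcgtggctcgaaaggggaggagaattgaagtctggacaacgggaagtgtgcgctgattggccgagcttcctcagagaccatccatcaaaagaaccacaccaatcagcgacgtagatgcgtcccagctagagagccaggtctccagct
Plk2, chr13:110394794-110395093, plus strand: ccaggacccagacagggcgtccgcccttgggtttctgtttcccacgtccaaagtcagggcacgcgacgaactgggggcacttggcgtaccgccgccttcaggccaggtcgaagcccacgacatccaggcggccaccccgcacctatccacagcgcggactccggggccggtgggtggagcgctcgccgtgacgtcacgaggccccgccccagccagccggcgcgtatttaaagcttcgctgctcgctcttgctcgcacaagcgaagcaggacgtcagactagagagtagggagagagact

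In the Cdkn1a window the decamers GGACTAGCTT and GAACATGTCT begin 73 and 51 bases before the start and are 12 bases apart. Directly after GAACATGTCT stands tgacatgttc, which misses the pattern only at its first base and so was not marked or counted. Which of these stretches p53 binds was not tested. The single decamer is GAACTTGCCT in Mdm2, 186 bases before the start, and GGGCAAGCCT in Ccng1, 185 bases before it. Trp53 holds GGACTTGCCC 75 bases before its start, Ppm1d GAGCTTGCTC 132 bases before and Gadd45a GGGCTAGCCC 40 bases before. None of these genes passed the limma test between groups, but neither did 29 of the 31 members or 12514 of the 13981 genes tested. A relation between decamers and group differences was not tested. The genes without a window were Zmat3, Ddb2, Xpc, Rrm2b, Perp, Tnfrsf10b and Trp53inp1, the other gene that rose.

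Other p53 targets, regulators and cell-cycle genes were read from the same fit. Of 39 other targets tested, 0 rose and 5 fell (12.8%, against 4.56% of all genes tested), with a median log2 fold change of -0.09. An unadjusted p under 0.05 was found for 13 of them (33.3%, against 26.8%). Gls2, the p53-induced mitochondrial glutaminase, fell 4.02-fold from 161.0 and 167.6 to 52.4 and 29.3 (adjusted p = 0.0138). Klf4, a transcription factor of differentiated colon epithelium, fell 1.63-fold, the ferrireductase gene Steap3 2.31-fold and the ribosomal protein gene Rps27l 1.42-fold (adjusted p = 0.0340, 0.0487 and 0.0487). Rps27l closely resembles Rps27 and is uncertain for that reason. The death effectors Bax and Bbc3 did not pass: Bax stood at 4168 and 4174 in G0 and 3541 and 3390 in G2 (adjusted p = 0.222), and Bbc3 at 772.8 and 859.4 and at 1133 and 924.7 (adjusted p = 0.240). Bax and Bbc3 fall outside the naming rule and were picked with their values known.

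Of 26 regulators of p53 tested, 2 rose (7.69%, against 5.93% of all genes tested) and 0 fell by limma, with a median of 0.09. An unadjusted p under 0.05 was found for 4 (15.4%, against 26.8%). Trp53bp2, which encodes ASPP2, a partner that steers p53 towards death genes, rose 1.93-fold from 2001 and 1886 to 4167 and 3340 normalized counts (adjusted p = 0.0114). Cul9, a cytoplasmic ubiquitin ligase scaffold that binds p53, rose 5.35-fold from 17.7 and 41.6 to 146.2 and 171.1 (adjusted p = 0.0148), and 8.98-fold without line 179 (G0 replicate 2).

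The DREAM complex, which p21 activates, represses promoters of cell-cycle genes. Of 26 such targets 9 fell (34.6%, against 4.56% of all genes tested) and 0 rose, and the median was -0.56. Both G2 libraries lay below both G0 libraries for 26 of 26, against 28.6% of all genes tested. Mybl2 fell 2.48-fold from 2937 and 3195 to 1287 and 1182 normalized counts (adjusted p = 0.00222), and Plk1 fell 1.77-fold, Ccnb2 1.76-fold, Aurka 1.62-fold, Ccnb1 1.59-fold and Ccna2 1.58-fold. Cdkn1a, with the values given above, did not pass the limma test (adjusted p = 0.382). The log2 fold change of Ckap2, -0.61, lay between the lowest and highest of these targets, -1.31 and -0.17. The part of p21 or of the complex in these differences was not tested. Of the 20 subunits of the complex, cyclins and CDKs that act on it, 1 rose and 2 fell by limma, with a median of -0.07. Of all genes tested 5.93% rose and 4.56% fell, so 1 rise among 20 genes lies near that background. An unadjusted p under 0.05 was found for 6 of the 20, against 26.8% of all genes tested. Cdk6 rose 2.06-fold, and Cdk2 and Ccne1 fell 1.63-fold and 1.51-fold (adjusted p = 0.0264, 0.0283 and 0.0492). The lists share no test against each other, and their counts are descriptions.

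**Figure D4:**
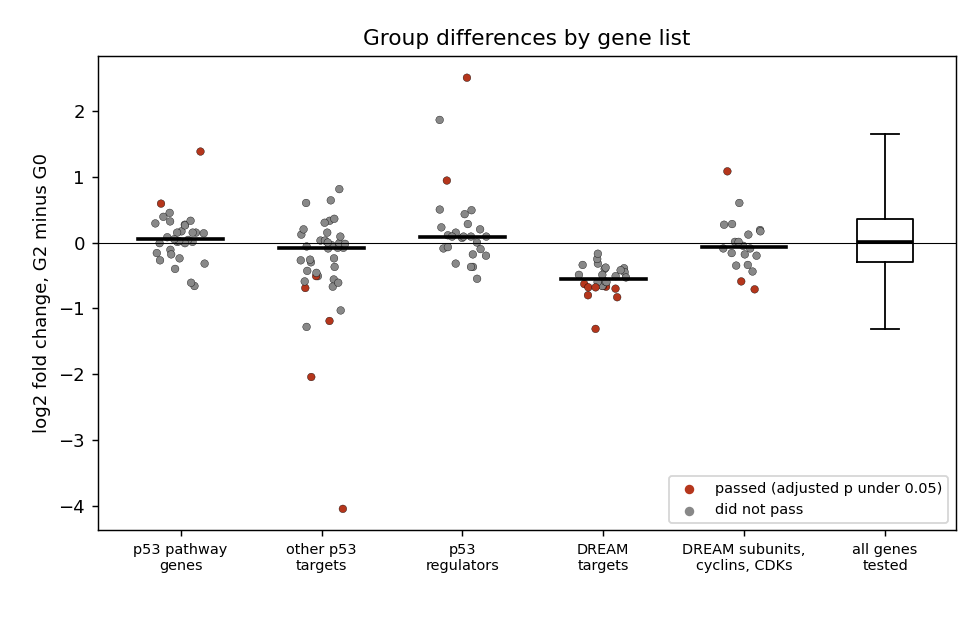
Log2 fold change, G2 minus G0, of each tested gene in 5 lists, with the median as a bar, beside all genes tested (box: quartiles and median, whiskers: 5th to 95th percentile). The p53 pathway genes centre on 0.05 and the DREAM targets on -0.56, with 26 of 26 below 0.

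The calls in this set needed all 4 libraries. With any 1 library left out, limma called 0 genes of the whole table, and of the 31 genes 6, 3, 4 and 1 had an unadjusted p under 0.05 without G0 replicate 1, G0 replicate 2, G2 replicate 1 and G2 replicate 2. Among all genes tested these shares were 23.0%, 17.0%, 17.7% and 17.6%. The fold of Plk2 hardly moved in these fits, from 1.47 to 1.54.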

How the data were processed

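One bulk RNA library was made from each of 4 colonoid lines, 2 per group. The authors deposited 1 table of log2-scale expression values. HISAT2 2.1.0, StringTie 2.1.1 and DESeq2 1.32.0 and the build mm10 are named in the submitters' processing notes, without order. Annotation, strand setting and filters: not given in the sources used here.

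All libraries share a lowest value of 6.508, the form a variance-stabilizing transformation gives to a count of 0. It was inverted with that floor as its only constant, and 1 factor per library (0.984 to 1.02) turned 100% of values into whole numbers within 0.001 (for larger counts within a millionth of the count). These recovered counts may be rounded StringTie estimates. Genes averaging at least 1 normalized count were tested with limma 3.58.1 in R 4.3.3 (eBayes with trend, two-sided, Benjamini-Hochberg over 13981 genes, threshold 0.05) on log2(normalized count + 1), which understates changes of low genes. Within a group neither library repeats the other: the counts of the lines of a group differed by a chi-square of 34.4 (G0) and 25.4 (G2) per gene, above sampling noise, which checks for double deposit only.

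Exon lengths came from GENCODE M21 (98.3% of genes tested), coordinates and sequences from RefSeq GRCm38.p6, the mm10 assembly. Members, lists and tests were chosen with earlier results of these data known. Every member was named, as were genes of the other lists that passed, at most 6 of smallest p in each direction. Some genes that this rule takes are not reported here. The alternatives were another pseudocount, other filters, the deposited log2 values, scaling by library totals, voom weights, a replicate block and leaving out each library. The plan had assumed log2-scale values.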

Additional observations from a re-analysis of the deposited data

How the results depend on the processing

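The lowest count of a member in any library was 84, and each group held 2 lines. Of the members higher in G2, 2 became 1 without a filter on low values and 1 with scaling by library totals, Trp53inp1 being lost in both. With any 1 library left out, the range of calls was 0 to 0 for members, other targets, regulators and DREAM targets in both directions. The median of the members then ranged from -0.05 to 0.13. Other targets higher in G2 were 1 in place of 0 with a pseudocount of 5, a minimum mean of 5 or scaling by totals. Other targets lower in G2 were 2 without a filter, 3 with scaling by totals and 3 with voom weights, in place of 5.

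The replicate numbers are shared by the groups. The differences between the lines of a group correlated across all genes tested at r = 0.11. Across the genes at or above the lowest member's mean r was 0.24. With 2 pairs and no label that links the lines, the samples share only a number. With the replicate number as a block, 3503 genes were called in place of 1467. Members lower in G2 then numbered 1 (Ckap2), members higher 3 (with Btg2), other targets 3 higher and 12 lower, regulators 4 higher and 1 lower, and DREAM targets 20 lower.

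Of the 31 members, 12 kept the sign of their log2 fold change under all alternatives run. Scaling by totals turned Trp53 to 0.06 and Tnfrsf10b to 0.05. Leaving out 1 library turned the sign of 19 members, none of them called, whose log2 fold changes then ranged as follows: Trp53 -0.17 to 0.16, Cdkn2a -0.23 to 0.38, Mdm2 -0.13 to 0.44, Mdm4 -0.01 to 0.55, Ccng1 -0.26 to 0.27, Gadd45a -0.19 to 0.21, Zmat3 -0.13 to 0.46, Polk -0.05 to 0.35, Ercc5 -0.01 to 0.30, Aen -0.10 to 0.19, Eda2r -0.05 to 0.70, Perp -0.14 to 0.72, Ei24 -0.34 to 0.13, Apaf1 -0.37 to 0.01, Tnfrsf10b -0.11 to 0.08, Sesn1 -0.03 to 0.07, Gdf15 -1.44 to 0.12, Fdxr -0.33 to 0.02, Dcxr -0.16 to 0.26. The cause was not tested.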
